A study of Mus musculus with 93 samples.

Results

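Genes of B cells and of the antibody-secreting plasma cells that arise from them were followed across the livers of 7 inbred mouse strains on 2 diets. The set was chosen by gene name and holds 9 of the 53465 genes in the count table, each matched through its Ensembl identifier: the immunoglobulin constant region genes Ighm, Igha, Ighg2b and Igkc, the plasma cell genes Jchain and Mzb1, and the B cell surface genes Cd79a, Cd79b and Ms4a1. Liver RNA was sequenced from 93 male mice of 4 laboratory strains (129S1/SvImJ, A/J, C57BL/6J and DBA/2J) and 3 wild-derived ones (CAST/EiJ, PWK/PhJ and WSB/EiJ). All mice lived at thermoneutrality (30 °C) from week 6 of age, and from week 7 they ate either a control diet with 10% of its energy as fat (CD-TN) or a western-style diet with 40% (WD-TN). They were killed in week 24, after 17 weeks on the diet, a fast of 4 h and perfusion with buffered saline. The CD-TN groups held 8 C57BL/6J, 6 DBA/2J, 5 A/J, 7 129S1/SvImJ, 6 WSB/EiJ, 7 CAST/EiJ and 6 PWK/PhJ mice. The WD-TN groups held 8, 7, 6, 6, 6, 8 and 7 mice in the same order of strains.

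A B cell displays IgM and IgD as its antigen receptor and signals through the partner proteins Cd79a and Cd79b. After activation it can replace the μ constant region with that of IgG, IgE or IgA, and it can mature into a plasma cell that transcribes heavy and light chain genes at a very high rate while surface genes such as Ms4a1 are turned down. The liver receives the blood of the gut, where IgA is the main antibody class, and its lymphocytes lie in the sinusoids and portal tracts.

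Each liver gave 40020424 to 49894856 reads on genes (median 46618609), between 1.66 and 14.8% of the reads of a library were unmapped, and the RNA integrity number ran from 7 to 9.7. The 10 hepatocyte genes examined summed to 76938 CPM or more in every mouse, where CPM is the count per 1e+06 reads on genes with the library sizes scaled by the trimmed mean of M values (TMM). Reads of all strains had been mapped to the C57BL/6J genome, so a difference in level between strains and a difference in how well an allele maps cannot be told apart. In bulk tissue, fewer B lineage cells and less RNA per cell cannot be told apart either. The mice came in 7 cohorts, none of which held all strains, and both diets occurred within each cohort of a strain. WSB/EiJ shared neither of its cohorts with another strain, so for that strain a difference from the others and a cohort difference cannot be told apart.

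All 9 genes were counted in every mouse and passed the filter on low counts. Compared per kb of exon, the κ light chain constant gene Igkc had the highest level, with a median of 16.8 CPM per kb over the 93 mice, followed by the IgM heavy chain gene Ighm with 8.42 CPM per kb. The joining chain gene Jchain, whose product links polymeric IgA and IgM, and the IgA heavy chain gene Igha had medians of 1.13 and 0.913 CPM per kb. The remaining 5 medians ran from 0.536 CPM per kb for Cd79a down to 0.0941 CPM per kb for Ms4a1, which encodes the B cell surface protein CD20. The switched heavy chains varied most between mice, with the highest level 916 times the lowest for Ighg2b and 633 times for Igha, against 11.9 times for Mzb1, a chaperone of the endoplasmic reticulum that helps antibody secretion. Without 1 CAST/EiJ mouse on CD-TN (replicate 4), which held the highest value of both, these ratios were 517 for Ighg2b and 452 for Igha, and without that mouse and 1 A/J mouse on WD-TN (replicate 3) they were 170 and 214.

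**Figure D1:**
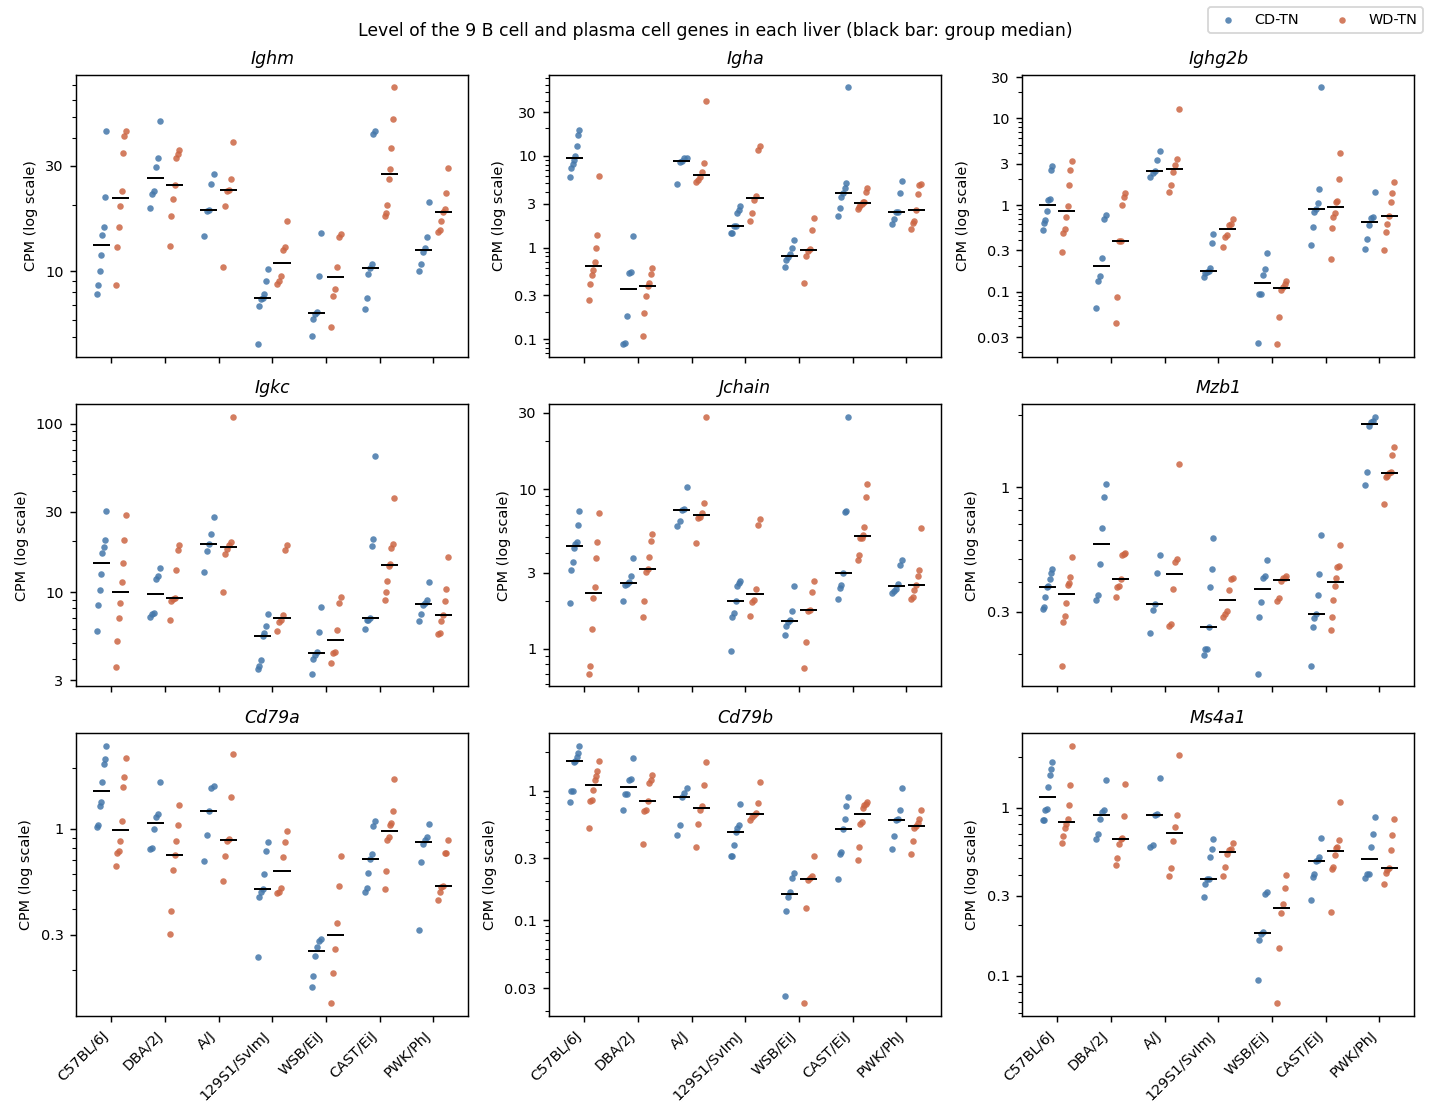
Level of each of the 9 genes in each liver (CPM on a log axis) by strain, with CD-TN mice in blue, WD-TN mice in orange and a black bar at the group median. Igha in C57BL/6J has a median of 9.55 CPM on CD-TN and 0.631 CPM on WD-TN, Mzb1 is highest in PWK/PhJ, the 3 B cell surface genes are lowest in WSB/EiJ, and 1 A/J mouse on WD-TN and 1 CAST/EiJ mouse on CD-TN stand far above their groups in Igha, Ighg2b, Igkc and Jchain.

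Livers of 2 mice stood apart from their groups and are given with their values before the comparisons. In 1 A/J mouse on WD-TN (replicate 3, cohort 2) Igkc stood at 110 CPM against 9.95 to 19.8 CPM in the other 5 mice of its group, Igha at 39.9 against 5.21 to 8.30 CPM, and Jchain at 28.3 against 4.57 to 8.20 CPM. In 1 CAST/EiJ mouse on CD-TN (replicate 4, cohort 4) Igha stood at 55.9 CPM against 2.19 to 5.10 CPM in the other 6 mice, Ighg2b at 22.8 against 0.351 to 1.54 CPM, and Jchain at 28.0 against 2.05 to 7.29 CPM. In both mice Igha, Ighg2b, Igkc and Jchain lay above all other mice of their groups, while Ighm was the lowest of its group in the CAST/EiJ mouse (6.76 CPM) and the highest of its group in the A/J mouse (38.6 CPM). The B cell surface genes moved less: Cd79a was 1.63 and Ms4a1 2.25 times the highest of the other mice in the A/J liver, and 1.06 and 0.734 times in the CAST/EiJ liver. The IgG1 gene Ighg1 reached 48.9 CPM in the A/J mouse and 22.9 CPM in the CAST/EiJ mouse, where the other mice of these groups had at most 2.24 and 0.278 CPM. Not every switched class was high: the IgG3 gene Ighg3 stood at 3.72 CPM in the A/J mouse (others 0.144 to 5.15) and at 0.0972 CPM in the CAST/EiJ mouse, below its group (others 0.202 to 0.417).

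Of 12 plasma cell genes outside the set, 6 lay above all other mice of the group in each of these livers, 0 by over 2 times. Of 24 B cell genes outside the set 20 did in the A/J liver, 3 by over 2 times, and 8 in the CAST/EiJ liver, 0 by over 2 times. Genes of other cell types also stood out in these 2 livers. All 8 neutrophil genes examined were over 2 times the highest of the other mice in the A/J liver, and their summed level was 29.5 CPM against 1.16 to 3.14 CPM. In the CAST/EiJ liver 4 of the 8 were, with a summed level of 11.3 CPM against 2.27 to 4.44 CPM. The chemokine gene Cxcl13, which draws B cells into follicles, was at 7.92 CPM in the A/J liver (others 1.34 to 3.26) and at 24.3 CPM in the CAST/EiJ liver (others 5.56 to 9.93). It was the only 1 of 13 Ensembl entries for factors that keep or attract B lineage cells to exceed 2 times the highest of the other mice. Of these 13, 5 lay above the other mice in A/J and 3 in CAST/EiJ, and of 8 lymph node stroma entries 3 and 1 did. The 12 T cell genes summed to 16.0 CPM in the A/J liver (others 6.75 to 9.94), where all 12 lay above the other mice, none by over 2 times, and to 5.64 CPM in the CAST/EiJ liver (others 4.16 to 12.9), where 1 of 12 did. The 10 macrophage and Kupffer cell genes lay above all other mice in both livers, with sums of 780 CPM (others 317 to 482) in A/J and 361 CPM (others 211 to 286) in CAST/EiJ. The part of these cell types in the antibody gene levels was not tested.

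The western diet changed few of these genes. Of 63 comparisons of WD-TN with CD-TN, 1 per gene and strain, 3 passed an adjusted p of 0.05 (limma-voom, Benjamini-Hochberg adjustment over all 19110 genes tested): Igha in C57BL/6J, Ighm in CAST/EiJ and Mzb1 in PWK/PhJ. Over all genes tested, 26.2% were differentially expressed in C57BL/6J, 18% in DBA/2J, 28% in 129S1/SvImJ, 9.03% in A/J, 8.94% in WSB/EiJ, 19.5% in CAST/EiJ and 29.6% in PWK/PhJ. In C57BL/6J, CAST/EiJ and PWK/PhJ 1 of the 9 genes passed and in the other 4 strains 0 did. No gene had WD-TN and CD-TN mice of a strain entirely apart, while 7.54% of all combinations of tested gene and strain did.

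**Figure D2:**
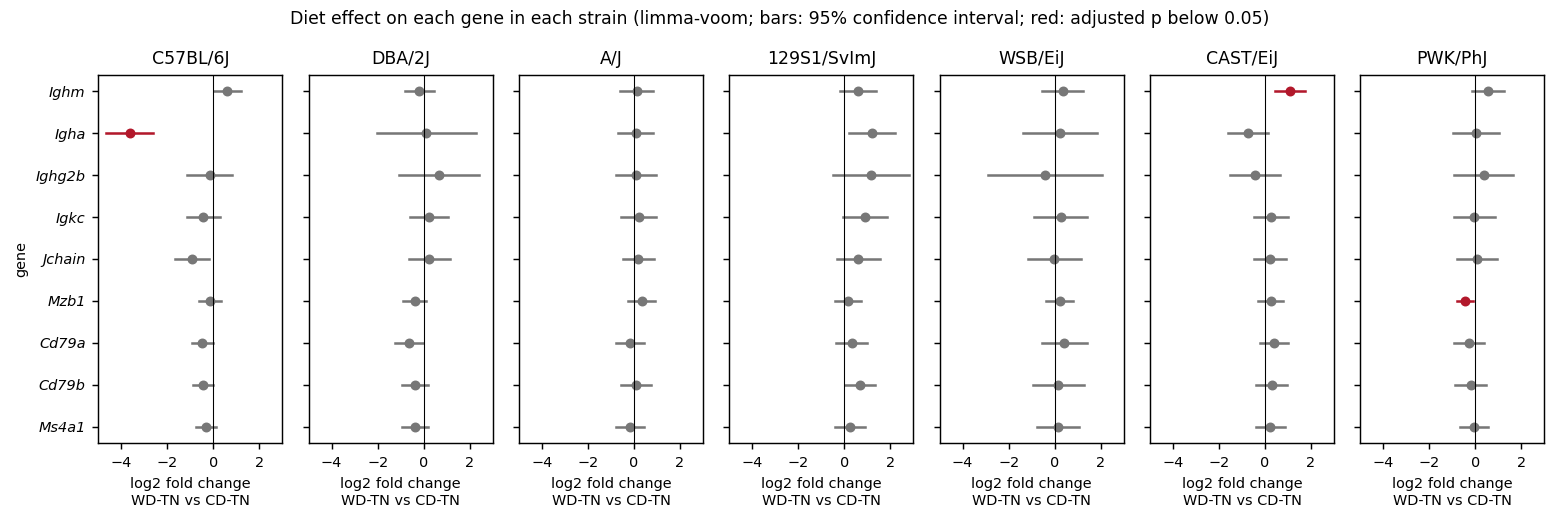
Diet effect on each gene (rows) in each strain (panels) as the log2 fold change of WD-TN against CD-TN from limma-voom, with 95% confidence intervals. Of 63 effects 3 are red (adjusted p below 0.05), and Igha in C57BL/6J, at -3.64, lies farthest from 0.

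Igha (chromosome 12, 113254830 to 113260236, minus strand, GRCm38) encodes the IgA heavy chain. In C57BL/6J it ran from 5.94 CPM through a median of 9.55 to 18.9 CPM in the 8 CD-TN mice, and from 0.268 through 0.631 to 5.97 CPM in the 8 WD-TN mice. The groups overlapped only through 1 WD-TN mouse at 5.97 CPM (replicate 3), just above the lowest CD-TN mouse, and the other 7 WD-TN mice lay at 1.35 CPM or less. That mouse also had the highest Ms4a1 of its group, at 2.32 CPM. Igha was downregulated on WD-TN, with means of 11.1 ± 4.67 and 1.34 ± 1.90 CPM (SD, n = 8 each) and a log2 fold change of -3.64 (SE 0.52, 95% confidence interval -4.66 to -2.61, adjusted p = 4.6e-08). The fall was present in both cohorts of this strain, from a mean of 12.5 to 1.80 CPM in cohort 1 and from 10.3 to 0.581 CPM in cohort 2, where all 3 WD-TN mice lay below all 5 CD-TN mice.

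The diet effect on Igha differed between the strains (F test for a difference between diet effects, adjusted p = 2.3e-06), and Igha was the only 1 of the 9 genes for which it did, where 37.5% of all genes tested passed. Without both mice that stood apart Jchain passed as well. Those 2 mice were the 2 highest in Jchain, so leaving them out narrows the spread of Jchain itself and is no independent test of it. Against the mean effect of the other 6 strains, the effect on Igha in C57BL/6J was lower by 3.79 log2 units (SE 0.58, adjusted p = 6.5e-06, 4.69% of all genes called in this comparison). In 129S1/SvImJ it was higher by 1.86 (SE 0.57, adjusted p = 0.033, 6.28% of all genes). The mean for that comparison includes C57BL/6J, with its log2 fold change of -3.64, so part of this gap is the C57BL/6J fall. The WD-TN to CD-TN difference of 129S1/SvImJ on its own was 1.21 (SE 0.50) and missed the threshold, with adjusted p = 0.061. There Igha ran from 1.43 through 1.71 to 2.86 CPM in 7 CD-TN mice and from 1.96 through 3.44 to 12.7 CPM in 6 WD-TN mice. The highest WD-TN values, 11.5 and 12.7 CPM, both came from cohort 3, in which all 3 WD-TN mice lay above all 3 CD-TN mice, and in cohort 5 the diets overlapped. In A/J, WSB/EiJ, PWK/PhJ and DBA/2J the log2 fold change of Igha lay between 0.02 and 0.22. In CAST/EiJ it was -0.72, and -0.13 without the CD-TN mouse that stood apart.

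Ighm (chromosome 12, 113418558 to 113422730, minus strand), the constant region of every newly made B cell's receptor and of secreted IgM, was upregulated on WD-TN in CAST/EiJ. It ran from 6.76 through 10.3 to 43.5 CPM in 7 CD-TN mice and from 17.7 through 27.6 to 68.2 CPM in 8 WD-TN mice. All WD-TN mice lay above 5 of the CD-TN mice, and the other 2 CD-TN mice, both of cohort 3, stood at 42.1 and 43.5 CPM, above 6 of the 8 WD-TN mice. The log2 fold change was 1.09 (SE 0.32, 95% confidence interval 0.45 to 1.73, adjusted p = 0.0093). Within cohort 4 all 3 WD-TN mice (17.7 to 36.1 CPM) exceeded the 4 CD-TN mice (6.76 to 10.3 CPM). Within cohort 3 they did not, with 19.9 and 49.1 CPM on WD-TN against 42.1 and 43.5 CPM on CD-TN. The call was lost with cohort as a covariate (adjusted p = 0.075). It was also lost with edgeR (0.064), DESeq2 (0.057), sample quality weights (0.069) and a fit of this strain alone (0.094). In C57BL/6J, 129S1/SvImJ, PWK/PhJ, WSB/EiJ and A/J the log2 fold change of Ighm was also above 0, between 0.11 and 0.60, and in DBA/2J it was -0.20, all short of the threshold.

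Mzb1 was lower on WD-TN in PWK/PhJ, with 1.02, 1.84 and 1.97 CPM as the lowest, median and highest of 6 CD-TN mice and 0.852, 1.14 and 1.47 CPM for the 7 WD-TN mice. The groups overlapped, since the lowest 2 CD-TN mice (1.02 and 1.16 CPM) lay among the WD-TN mice. The log2 fold change was -0.43 (SE 0.17, adjusted p = 0.049). That call held in 3 of the 9 alternative analyses and in 24 of the 93 fits that left out 1 mouse. Spata24, the gene beside Mzb1, fell in the same strain by 0.34 on the log2 scale (adjusted p = 0.036), and Prob1, also close to it, had a log2 fold change of -0.28 (adjusted p = 0.095). Spata24 also fell in C57BL/6J, by 0.56 (adjusted p = 0.0058), where Mzb1 was not called.

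Igkc (chromosome 6, 70726435 to 70726966, plus strand), Jchain (chromosome 5, 88519809 to 88527891, minus strand) and Ighg2b (chromosome 12, 113302965 to 113307933, minus strand), the IgG2b heavy chain gene, passed the diet test in no strain. The nearest of the 3 was Jchain in C57BL/6J, which ran from 1.94 through 4.39 to 7.26 CPM on CD-TN and from 0.702 through 2.25 to 7.13 CPM on WD-TN. The groups overlapped over most of their range, and the log2 fold change was -0.93 (SE 0.38, adjusted p = 0.057). Without the A/J and CAST/EiJ mice that stood apart, which share the estimate of spread, its adjusted p was 0.015. These mice were left out for their high Jchain, so that value is no independent test of Jchain. In 129S1/SvImJ all 9 genes had a log2 fold change above 0, from 0.15 for Mzb1 to 1.21 for Igha, and none passed. A fit of that strain alone called Ighm, Igha, Ighg2b, Igkc and Cd79b. For Ighg2b the 129S1/SvImJ mice ran from 0.148 through 0.173 to 0.468 CPM on CD-TN and from 0.326 through 0.524 to 0.685 CPM on WD-TN, at 7 to 34 counts per mouse.

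Cd79a (chromosome 7, 24897381 to 24902197, plus strand) and Cd79b (chromosome 11, 106311341 to 106314762, minus strand) encode Ig-α and Ig-β. With Ms4a1 (chromosome 19, 11249675 to 11266241, minus strand) they passed the diet test in none of the 7 strains. Their log2 fold changes lay between -0.64 for Cd79a in DBA/2J (95% confidence interval -1.26 to -0.02) and 0.68 for Cd79b in 129S1/SvImJ (0.02 to 1.34). In C57BL/6J, DBA/2J and PWK/PhJ all 3 were below 0, and in 129S1/SvImJ, WSB/EiJ and CAST/EiJ all 3 were above 0. None of these signs was backed by a call.

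The share of each heavy chain class among the counts of all heavy chain constant genes was compared next, a measure in which the total of these counts cancels. A mouse had 276 to 7600 such counts (median 1155). In C57BL/6J the Igha share was 35.7% ± 12.7 (SD, n = 8) on CD-TN and 3.75% ± 3.03 (n = 8) on WD-TN. The groups did not overlap, with CD-TN mice from 11.5 to 49.5% and WD-TN mice from 1.23 to 10.1%. This fall of 32.0 percentage points had p = 0.00016 in a two-sided exact permutation test, the smallest p it allows with 8 mice against 8, and 0.0016 after adjustment over 21 tests. The Ighm share of C57BL/6J rose by 33.2 percentage points, from 46.6% ± 11.3 to 79.8% ± 4.92 (the same p values by the exact permutation test), with CD-TN mice from 30.6 to 68.0% and WD-TN mice from 72.1 to 84.7%. The shares of a mouse add up to a fixed total, so this rise and the fall of Igha are not independent results. The Ighm level itself was not called in C57BL/6J (limma-voom, log2 fold change 0.60, adjusted p = 0.13). The summed share of the 4 IgG genes was 7.66% ± 3.44 and 8.94% ± 2.65 in C57BL/6J on CD-TN and WD-TN and did not pass (exact permutation test, adjusted p = 0.75). The Igha and Ighm shares of C57BL/6J were the only 2 of the 21 share tests that passed. The nearest of the rest was the Igha share of CAST/EiJ, 23.1% ± 15.1 on CD-TN and 9.18% ± 3.87 on WD-TN (exact permutation test, adjusted p = 0.15), with a CD-TN mean of 18.9% ± 11.4 (n = 6) without the mouse that stood apart.

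**Figure D3:**
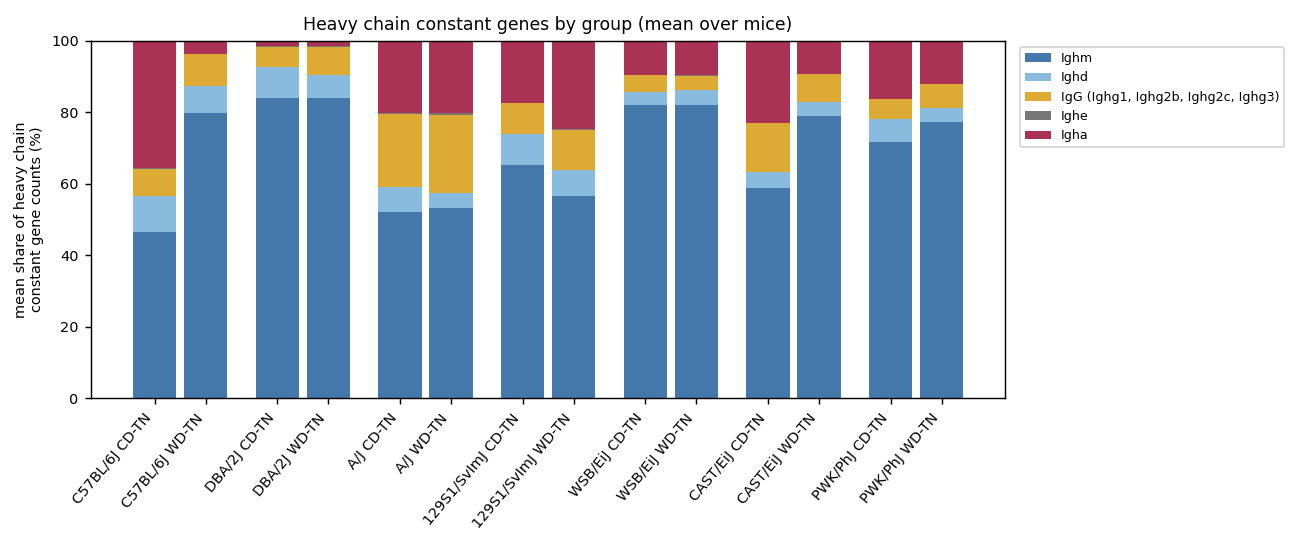
Mean share of each heavy chain constant gene class (percent of the summed counts of Ighm, Ighd, Ighg1, Ighg2b, Ighg2c, Ighg3, Ighe and Igha) in the 14 groups of 5 to 8 mice. The red Igha segment shrinks from 35.7% to 3.75% between the C57BL/6J bars and is thinnest in DBA/2J, at 1.48% and 1.43%.

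Levels of all 9 genes differed between strains on CD-TN and on WD-TN (limma-voom F test over 7 strains, adjusted p from 5.3e-17 for Mzb1 to 0.0002 for Igkc on CD-TN and from 1.4e-11 for Mzb1 to 0.00046 for Igkc on WD-TN). Such a difference was the rule, since 93.7% of all genes tested differed on CD-TN and 93.9% on WD-TN. Of 378 pairwise strain comparisons, 21 per gene and diet, 183 passed. They were 100 of 189 on CD-TN, where 48% of such tests over all genes passed, and 83 of 189 on WD-TN, where 50.4% did. Without both mice that stood apart 196 passed, and the strains at both ends of the order were the same for 17 of the 18 combinations of gene and diet. When strains were ordered by fitted log2 level, 12 of the 108 steps between neighbouring strains passed. The ordering itself makes such steps small and the span between its ends large. WSB/EiJ stood last in 13 of the 18 orders.

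The B cell surface genes shared 1 order at its ends: C57BL/6J highest and WSB/EiJ lowest, on both diets. Cd79b ran from 0.825 through 1.68 to 2.20 CPM in 8 C57BL/6J mice on CD-TN and from 0.0261 through 0.158 to 0.234 CPM in 6 WSB/EiJ mice. The 2 strains did not overlap, and the mean of C57BL/6J was higher by 3.35 log2 units (SE 0.42, adjusted p = 1.4e-10). The corresponding differences on CD-TN were 2.71 (SE 0.39) for Cd79a and 2.59 (SE 0.36) for Ms4a1, and on WD-TN they were 1.81 for Cd79a, 2.75 for Cd79b and 2.15 for Ms4a1, all past the threshold. For these genes the step from the next lowest strain down to WSB/EiJ passed on both diets. Among the other 6 strains no step between neighbours did. On CD-TN these strains ran, for Ms4a1, from a mean of 1.26 ± 0.407 CPM in C57BL/6J through DBA/2J, A/J, PWK/PhJ and CAST/EiJ to 0.447 ± 0.130 CPM in 129S1/SvImJ, with 0.207 ± 0.0863 CPM in WSB/EiJ. In WSB/EiJ the lowest mice had 1 count of Cd79b and 3 of Ms4a1, so these values rest on few reads.

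By fitted log2 level, Igkc, Jchain and Ighg2b were highest in A/J and lowest in WSB/EiJ on both diets, although the mouse that stood apart raised the plain CD-TN mean of CAST/EiJ above that of A/J for Ighg2b (4.01 CPM). Igkc stood at 13.2, 17.6, 19.3, 22.0 and 27.9 CPM in the 5 A/J mice on CD-TN and ran from 3.28 through 4.32 to 8.16 CPM in 6 WSB/EiJ mice. The 2 strains did not overlap, and the difference was 2.04 log2 units (SE 0.51, adjusted p = 0.00076). For Jchain it was 2.20 (SE 0.49) on CD-TN and 2.41 (SE 0.47) on WD-TN, and for Ighg2b 4.47 (SE 0.92) and 4.98 (SE 0.96). Ighg2b averaged 2.90 ± 0.886 CPM in A/J on CD-TN (SD, n = 5) and 0.139 ± 0.0894 CPM in WSB/EiJ (n = 6), where the lowest mouse had 1 count and the highest 12. On WD-TN the A/J level of Ighg2b also exceeded that of the next strain, C57BL/6J, by 1.60 log2 units (adjusted p = 0.0031).

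Igha had the widest span between strains of the 9 genes on CD-TN, while on WD-TN that of Ighg2b was wider (4.98 against 4.70 log2 units). On CD-TN the order of Igha ran from C57BL/6J (11.1 ± 4.67 CPM) through A/J, CAST/EiJ, PWK/PhJ, 129S1/SvImJ and WSB/EiJ to DBA/2J, where 6 mice ran from 0.0883 through 0.351 to 1.34 CPM. C57BL/6J stood 34.6-fold above DBA/2J (log2 difference 5.11, SE 0.83, adjusted p = 3.1e-07), although no step between neighbours in that order passed. The DBA/2J mice on CD-TN had 4 to 60 counts of Igha (median 16), so the size of this fold rests on few reads. On WD-TN A/J stood highest, with a median of 6.25 CPM in 6 mice, C57BL/6J had moved to the last place but DBA/2J, and the step from PWK/PhJ down to WSB/EiJ passed (1.51 log2 units, adjusted p = 0.038). Low Igha in DBA/2J went with no shortage of Ighm. On CD-TN Ighm was highest in DBA/2J, from 19.3 through 26.4 to 48.0 CPM, and lowest in 129S1/SvImJ, from 4.66 through 7.58 to 10.2 CPM, a difference of 1.90 log2 units (SE 0.37, adjusted p = 2e-05). In the shares of heavy chain counts, Ighm made up 84.0% ± 7.90 in DBA/2J and 52.0% ± 7.81 in A/J on CD-TN. On WD-TN Ighm was highest in CAST/EiJ (33.1 ± 17.7 CPM) and lowest in WSB/EiJ (10.2 ± 3.70 CPM).

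Mzb1 did not follow the antibody genes across strains. PWK/PhJ stood highest on both diets, at 1.62 ± 0.417 CPM on CD-TN and 1.17 ± 0.198 CPM on WD-TN. The step down to the next strain was 1.43 log2 units to DBA/2J on CD-TN (adjusted p = 1.8e-08) and 1.36 to A/J on WD-TN (adjusted p = 2.3e-07). Apart from 1 DBA/2J mouse on CD-TN at 1.03 CPM and the A/J mouse that stood apart at 1.25 CPM, no mouse of another strain reached the lowest PWK/PhJ mouse of the same diet. Over the 14 group means, the level of Mzb1 had r = 0.89 with Spata24 and 0.81 with Prob1, which lie next to it in the genome, and r = -0.18 with Jchain, a description over groups that share strains. The GENCODE annotation used here for gene names also holds a read-through transcript that spans Spata24 and Mzb1 on the same strand. That entry is not among the counted genes, and whether the annotation used for counting held it is not known. How the counting assigned reads to overlapping genes was not tested, so the PWK/PhJ level of Mzb1 is uncertain as a measure of plasma cells.

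The sequences of the immunoglobulin constant genes themselves differ between strains. C57BL/6J carries Ighg2c at the place where several other laboratory strains carry Ighg2a, and reads from such an allele could be counted only where they match the C57BL/6J reference. Ighg2b and Ighg2c lie close together on chromosome 12 and their coding sequences agree at 85.7% of aligned positions, against 74.1 to 76.3% for the other pairs among Ighg1, Ighg2b, Ighg2c and Ighg3. Identity by exon was 87.6, 77.3, 94.2 and 77.0% for exons 1 to 4. The short hinge exon (exon 2) is shown for both genes, as a stretch in which reads of one can be told from the other, with the bases that differ in capitals, after alignment, read from the GENCODE transcripts of GRCm38 on the minus strand. The third sequence is the longest run that both genes share, 78 bases of exon 3, printed without capitals because no base differs.
Ighg2b exon 2, chr12:113307261-113307326: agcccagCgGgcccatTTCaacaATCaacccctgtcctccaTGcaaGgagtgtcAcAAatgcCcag
Ighg2c exon 2, chr12:113288263-113288325: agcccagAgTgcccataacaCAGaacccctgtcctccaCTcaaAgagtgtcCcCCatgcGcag
Ighg2b exon 3, run shared with Ighg2c, chr12:113306869-113306946: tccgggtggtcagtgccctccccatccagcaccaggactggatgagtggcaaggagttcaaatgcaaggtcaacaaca

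In the 16 C57BL/6J mice Ighg2c took 40.0% of the summed counts of Ighg2b and Ighg2c (757 and 1134 counts). It took 46.5% in 129S1/SvImJ, 29.1% in A/J, 26.4% in DBA/2J, 23.1% in CAST/EiJ, 12.1% in PWK/PhJ and 5% in WSB/EiJ. The mice that stood apart carried a large part of these sums, and without them the share was 22.7% in A/J and 25.1% in CAST/EiJ, in the opposite order. In WSB/EiJ 11 of 12 mice had 0 counts of Ighg2c and the other had 3. These shares are sums over mice and carry no test, and the level of an IgG2 allele and its match to the reference cannot be told apart from them. The Igha and Ighm contrasts between diets lie within a strain and so compare the same alleles.

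Light chain counts were compared next, and in them the use of segments and how well their alleles map cannot be told apart. Counts on κ variable segments per count of Igkc had medians of 0.553 for A/J, 0.555 for 129S1/SvImJ, 0.560 for C57BL/6J and 0.564 for DBA/2J. In the wild-derived strains the medians were 0.323 in WSB/EiJ, 0.341 in CAST/EiJ and 0.358 in PWK/PhJ, and the ranges of the 2 sets of strains overlapped. The λ constant genes Iglc1, Iglc2 and Iglc3 made up a median of 16.6% of light chain constant counts in CAST/EiJ, with mice from 5.07 to 32.3%, against medians of 7.07 to 9.95% in the other 6 strains. In CAST/EiJ a single κ segment took up to 80.9% of the κ variable counts of a mouse, against at most 30.0% in any mouse of another strain. The segments with the highest mean level over all mice were Igkv1-117 (0.363 CPM), Igkv1-110 (0.353 CPM) and Iglv1 (0.335 CPM), and all 3 had their highest value in the A/J mouse that stood apart, at 3.61, 3.20 and 4.97 CPM. Without both such mice the highest values were 1.44, 1.24 and 2.12 CPM, each in a C57BL/6J mouse on CD-TN. Of the 14 heavy chain variable segments tested, 4 were lower on WD-TN in C57BL/6J and 0 differed in the other 6 strains. Of 41 κ segments tested, 4 differed in C57BL/6J (1 higher), 3 in 129S1/SvImJ (3 higher), 2 in DBA/2J (1 higher) and 0 in the other 4 strains. Of the 3 λ segments, 1 was lower on WD-TN in C57BL/6J and 1 in PWK/PhJ. Over all genes tested, the diet test called 26.2% in C57BL/6J, 28% in 129S1/SvImJ, 18% in DBA/2J and 29.6% in PWK/PhJ. In CAST/EiJ, A/J and WSB/EiJ it called 19.5%, 9.03% and 8.94%. Genes lower on WD-TN made up 11.9% in C57BL/6J and 14.5% in PWK/PhJ.

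**Figure D4:**
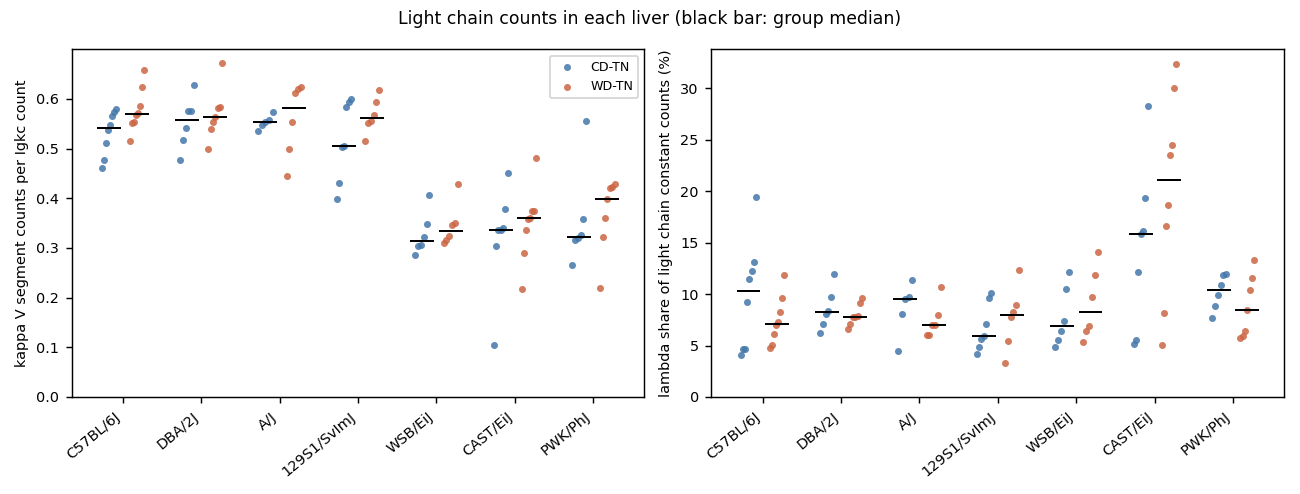
Left, counts on κ variable segments per count of the constant gene Igkc in each liver. Right, λ share of light chain constant counts (percent). CD-TN mice are blue, WD-TN mice orange, and black bars mark group medians. The κ ratio has strain medians of 0.553 to 0.564 in the 4 laboratory strains and 0.323 to 0.358 in the 3 wild-derived ones, and the λ share reaches 32.3% in CAST/EiJ.

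Within groups many of the genes varied together. For 27 of the 36 pairs, Pearson's r of log2 CPM with the mean of each strain and diet taken off passed an adjusted p of 0.05 (100000 permutations within groups, 93 mice), and by Spearman's rho 18 did. Igkc and Jchain were the most alike, with r = 0.93 and Spearman's rho = 0.90 (adjusted p = 4e-05 and 6e-05, the smallest the permutations can give), r = 0.92 without the 2 mice farthest from the median of Igkc, and r = 0.94 with cohort means taken off as well. Ighm had r = 0.66 with Igkc and r = 0.01 with Igha (rho = 0.06, adjusted p = 0.93). For Ighm and Igha r was 0.10 without the 2 farthest mice and 0.23 with cohort means taken off as well. Igha had r = 0.58 with Igkc and 0.61 with Jchain (rho = 0.41 and 0.45). For these 2 pairs r was 0.46 and 0.48 without the 2 farthest mice, and 0.66 and 0.67 with cohort means taken off as well.

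The B cell surface genes formed a block, with r = 0.71 for Cd79a and Ms4a1 (rho = 0.69), 0.66 for Cd79a and Cd79b (rho = 0.68) and 0.57 for Cd79b and Ms4a1 (rho = 0.57), each with adjusted p = 4e-05 for r. Between these genes and the immunoglobulin genes or Jchain r was lower, and most of these pairs still passed by r. By Spearman's rho fewer did. Igha with Cd79a, Cd79b and Ms4a1 missed the threshold by rho (adjusted p = 0.09, 0.19 and 0.18). So did Ighm with Cd79b, and both Igkc and Jchain with Cd79a and with Cd79b. Pearson's r ran from 0.21 for Jchain and Cd79a (rho = 0.12, adjusted p = 0.081) to 0.40 for Ighg2b and Cd79b (rho = 0.36, adjusted p = 0.00056). Among the immunoglobulin genes themselves some pairs were lower still, with r = 0.16 for Ighm and Ighg2b. Mzb1 had its highest r with Igha, at 0.41 (rho = 0.31, adjusted p = 0.002), and 0.35 without the 2 mice farthest from the median.

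**Figure D5:**
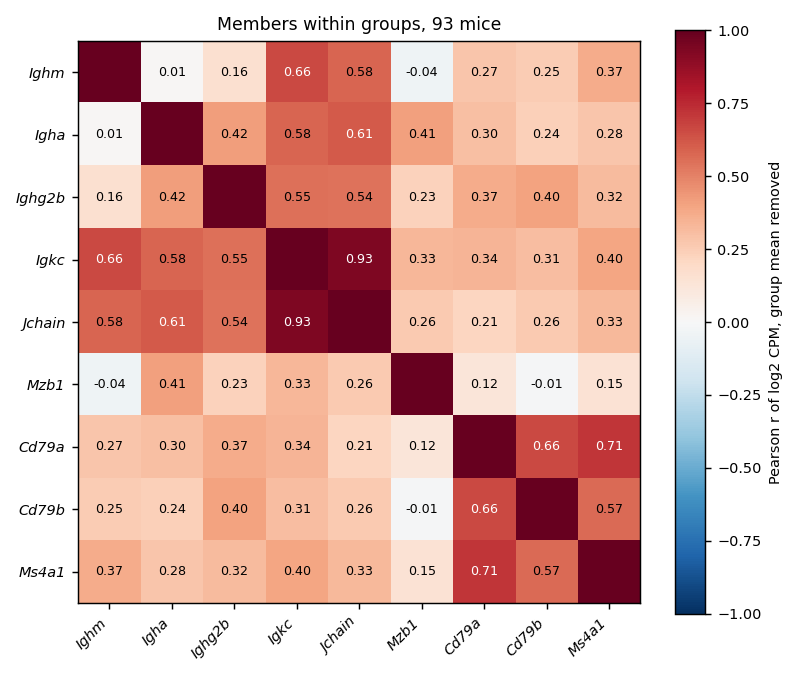
Pearson's r between each pair of the 9 genes over 93 mice, on log2 CPM after the mean of each strain and diet was taken off (red positive, blue negative). The highest r is 0.93 for Igkc and Jchain, the surface genes Cd79a, Cd79b and Ms4a1 have r of 0.57 to 0.71 with each other, and Ighm and Igha have 0.01.

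Among all other genes, those most like Cd79a within groups included Pou2af1 (r = 0.65), Btla (0.63), Cd37 (0.63) and Cd22 (0.62). Cd22 is an inhibitory coreceptor of the B cell receptor and Pou2af1 is a B cell transcription coactivator. Of the 100 genes most like Jchain 40 were immunoglobulin segments or members of the set, against 5 of the 100 most like Cd79a. Outside those, the genes most like Jchain were Pglyrp1 (r = 0.51), Dhx57 (0.47), Ptgir (0.47), St8sia6 (0.46) and Ltf (0.46). Without the 2 farthest mice these values were 0.48, 0.38, 0.39, 0.43 and 0.39 in the same order. Spearman's rho ran from 0.33 for Ptgir to 0.47 for Pglyrp1. Pglyrp1 and Ltf are neutrophil granule genes.

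Other genes of the B lineage were examined beside the set. Of 8 other immunoglobulin constant genes, 3 passed the diet test in C57BL/6J: Ighg3 rose by 1.79 on the log2 scale (adjusted p = 0.039), and Ighd (-0.74, adjusted p = 0.0066) and the λ gene Iglc1 (-1.53, adjusted p = 0.044) fell. In 129S1/SvImJ Iglc2 (1.17) and Iglc3 (1.21) rose, and in the other 5 strains 0 of the 8 passed. Among 24 other B cell genes, 12 rose in 129S1/SvImJ, 9 in PWK/PhJ and 5 in C57BL/6J, where 2 fell. Over all genes tested 14.5% rose in 129S1/SvImJ, 15.1% in PWK/PhJ and 14.3% in C57BL/6J, where 11.9% fell. The median log2 fold change of the list was 0.85, 0.31 and 0.06, against medians within 0.02 of 0 for all genes tested. In DBA/2J 2 rose and 1 fell, in WSB/EiJ 2 and in A/J 1 rose, and in CAST/EiJ 0 passed. Of all genes tested, 10.2% rose and 7.77% fell in DBA/2J, and 4.97% rose in WSB/EiJ and 4.39% in A/J. In CAST/EiJ 19.5% passed in either direction.

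The genes of that list called in the most strains were Ly6d, Cd72 and Cd180, each upregulated on WD-TN in 3 strains. Cd72, an inhibitory coreceptor of B cells, rose in C57BL/6J from 2.50 ± 0.869 to 5.38 ± 1.80 CPM (log2 fold change 1.12, adjusted p = 5.3e-08). Cd180, a Toll-like receptor relative of B cells and myeloid cells, rose there from 5.29 ± 2.25 to 9.14 ± 1.09 CPM (0.88, adjusted p = 3.8e-05). In the same C57BL/6J livers Pax5, which holds B cell identity, fell by 0.68 and Fcer2a, the low-affinity IgE receptor of mature B cells, fell by 0.76 on the log2 scale (adjusted p = 0.038 and 0.012). The list thus moved in both directions in the strain in which Igha fell. Pax5, Fcer2a, Ighd and Iglc2 were chosen for naming after their values were seen.

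Several of these genes are also active in macrophages or other cells of the liver. The 10 macrophage and Kupffer cell genes examined had 6 members higher on WD-TN in C57BL/6J, 7 in 129S1/SvImJ and 6 in PWK/PhJ, and their summed level in C57BL/6J ran from 349.9 to 699.9 CPM on CD-TN and from 578.6 to 1046 CPM on WD-TN. Of 12 T cell genes 11 rose in 129S1/SvImJ, 2 in PWK/PhJ and 0 in C57BL/6J. Of all genes tested, 14.5% rose in 129S1/SvImJ, 15.1% in PWK/PhJ and 14.3% in C57BL/6J. The summed level of the 8 neutrophil genes ran from 1.69 to 8.25 CPM on CD-TN and 4.14 to 6.63 CPM on WD-TN in C57BL/6J. The part of these cells in the levels of the other B cell genes was not tested.

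Of 11 other plasma cell genes tested, Prdm1, a transcription factor of plasma cells that other immune cells also express, rose on WD-TN in 129S1/SvImJ (log2 fold change 1.55, adjusted p = 9.5e-08), C57BL/6J (0.94, 9.8e-06) and PWK/PhJ (1.14, 0.0001). Derl3 and Ccr10, the latter a homing receptor of IgA plasma cells, each rose in 1 strain. The summed level of this list was at least 600.0 CPM in the C57BL/6J mice, and some of its genes, such as Sdc1 and Xbp1, are also active in hepatocytes. In that strain 3 of the 11 genes rose and 1 fell, where 14.3% of all genes tested rose and 11.9% fell. In CAST/EiJ 1 rose and 2 fell (9.77% and 9.73% of all genes tested), and in PWK/PhJ 1 rose and 1 fell (15.1% and 14.5%). In DBA/2J, 129S1/SvImJ and WSB/EiJ 1 each rose (10.2%, 14.5% and 4.97% of all genes tested), and in A/J 0 passed (9.03%). The median log2 fold change of this list lay between -0.083 in PWK/PhJ and 0.194 in WSB/EiJ. Among the factors that keep or attract B lineage cells, Il7, a growth factor of lymphocytes, rose in 5 strains and Cxcl12 fell in 3. Cxcl13 fell in C57BL/6J from 4.35 ± 2.06 to 2.58 ± 3.71 CPM (log2 fold change -1.32, adjusted p = 0.014).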

How the data were processed

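The authors sequenced liver mRNA of 93 mice on a BGISEQ-500 and aligned the reads with STAR 2.7.1a to the mouse genome (GRCm38/mm10 per the submitters' processing notes). The annotation release and the strand setting of the counting are not given in the sources used here. The deposited table holds raw read counts per Ensembl gene, one column per mouse. No 2 columns were identical and 0 columns of samples were left unused. Its 4 summary lines (unmapped, multimapping, no feature, ambiguous) stayed out of library sizes and tests. Library sizes were 40020424 to 49894856 reads on genes.

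Groups were strain and diet as labelled. Replicate numbers follow accession order. Genes passing filterByExpr of edgeR 4.0.16 (minimum count 10; 19110 genes) were scaled by TMM (factors 0.810 to 1.267) and tested with limma 3.58.1 voom in R 4.3.3, with a mean per group, Benjamini-Hochberg adjustment over all genes in each contrast and a threshold of 0.05. CPM uses the TMM-scaled library sizes. Heavy chain shares were tested by exact two-sided permutation within strain (21 tests), and correlations used log2 CPM with a prior count of 2 (SciPy 1.17.1). Alternatives were edgeR's quasi-likelihood test, DESeq2 1.42.0, upper-quartile scaling, genes of any count, cohort or RNA integrity number as covariate, sample quality weights, separate fits per strain and leaving out each mouse. Leaving out both mice that stood apart, taken as the 2 mice with the highest Jchain level, was chosen after seeing the data. Scripts were tested on simulated data.

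The members and gene lists were chosen with earlier results of these data known. Named were all 9 members, from each other list up to 3 genes called in the most strains in 1 direction, the 5 genes most correlated with Jchain and with Cd79a (1 of these is not reported here), and the 3 variable segments with the highest mean CPM.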

Additional observations from a re-analysis of the deposited data

Results flagged for a closer look

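In 126 sets of 1 gene in 1 group of mice, the gap of an end mouse to its nearest neighbour was compared with Dixon's 95% critical value. Its nominal rate of about 1 in 20 holds for normally distributed values in independent sets. Here CPM was used without a log transform and the sets shared mice, so an excess over chance was not measured. In 19 sets a mouse exceeded the critical value, and these came from 10 mice. The A/J mouse on WD-TN that stood apart (replicate 3) gave 6 of them, with 39.9 CPM of Igha, 12.9 of Ighg2b, 110 of Igkc, 28.3 of Jchain, 1.25 of Mzb1 and 2.05 of Ms4a1. The CAST/EiJ mouse on CD-TN (replicate 4) gave 4, with 55.9 CPM of Igha, 22.8 of Ighg2b, 64.4 of Igkc and 28.0 of Jchain. In C57BL/6J on WD-TN, replicate 3 stood above its group in Igha (5.97 CPM) and Ms4a1 (2.32 CPM). On CD-TN, Ighm was at 43.1 CPM in C57BL/6J replicate 6, and Igha was at 1.34 CPM in DBA/2J replicate 1 and, below its group, at 4.87 CPM in A/J replicate 4. On WD-TN, Ighg2b was at 4.02 CPM in CAST/EiJ replicate 5, Igkc at 36.3 CPM in CAST/EiJ replicate 3, Jchain at 5.67 CPM in PWK/PhJ replicate 2 and Cd79b at 1.17 CPM in 129S1/SvImJ replicate 5.

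The diet effect on Igha differed between the 7 strains (limma-voom F test, adjusted p = 2.25e-06). Against the mean of the other 6 strains the log2 effect differed by -3.79 in C57BL/6J and by 1.86 in 129S1/SvImJ. The latter mean includes the C57BL/6J fall, so these 2 differences are not independent.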

How the results depend on the processing

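Igha in C57BL/6J passed in all 9 alternatives (log2 fold change -3.69 to -3.03, adjusted p 4.7e-12 to 0.00018) and in all 93 fits that left out 1 mouse (-4.09 to -3.43). Members called in C57BL/6J went from 1 to 2 without both mice that stood apart (Jchain added) and were 1 to 3 with 1 mouse left out. In 129S1/SvImJ 0 members were called, against 1 with edgeR, with cohort as a covariate or without both mice (Igha each time), 2 with DESeq2, 3 with sample quality weights and 5 in a fit of that strain alone, and 0 to 1 with 1 mouse left out. In CAST/EiJ 1 was called, against 2 with edgeR and with DESeq2 (Igha and Ighg2b, not Ighm) and 0 with cohort, with quality weights and in a separate fit. In PWK/PhJ 1 was called, against 0 with edgeR, DESeq2, upper-quartile scaling, genes of any count and cohort, and 0 to 1 with 1 mouse left out. The separate fit called 1 there as well, but it was Ighm (0.57, adjusted p = 0.020) and not Mzb1 (adjusted p = 0.084). Members whose diet effect differed between strains went from 1 to 2 without both mice (Jchain added, the gene by which these mice were picked). Heavy chain shares that differed numbered 2 under each alternative and 2 to 3 with 1 mouse left out. The log2 fold change of Ighg2b in CAST/EiJ turned from -0.43 to 0.28 without both mice, and lay between -0.72 and 0.28 with 1 mouse left out, the upper end without CAST/EiJ CD-TN replicate 4. Of the 63 diet effects 13 changed sign under an alternative, none of them called in the reported analysis or under the alternative that turned its sign, and 18 when 1 mouse was left out. The cause of these changes was not tested. Ighg2b at 1 to 12 counts and Cd79b at 1 to 14 counts per mouse were limited by depth in WSB/EiJ. No paired analysis was possible because the replicate numbers follow accession order and pair no mice.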
